A study of Mus musculus with 6 samples.

Results

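The Wnt ligands, their cell-surface receptors, the R-spondins and the secreted Frizzled-related proteins (Sfrps) were compared between mouse colon tumors and colon tissue. Members were chosen by gene symbol alone. They were every gene in the table with a Wnt ligand, Frizzled (Fzd), R-spondin (Rspo) or Sfrp symbol, with Lrp5, Lrp6, Ror1, Ror2 and Ryk. Frzb, also named Sfrp3, did not match by symbol and is described with the other secreted inhibitors. The rule found 40 of the 33573 genes in the table, and 35 of them were among the 18520 genes with enough counts to be tested. Bulk RNA-seq was performed on frozen tissue pieces from male C57BL/6 mice in which colitis-associated tumors had been induced with azoxymethane (AOM), a colon carcinogen, followed by repeated cycles of dextran sodium sulfate (DSS), which injures the colon epithelium. The tumor group held 3 libraries and the colon group held 3 libraries, both numbered 2, 4 and 20 in the labels. Both groups came from AOM/DSS mice without any engineered allele, so the colon samples are not untreated tissue. The labels call the groups tumor cell and normal colon cell, but the samples were whole tissue and no cell type was purified.

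Wnt proteins are secreted lipid-modified ligands that bind a Frizzled receptor together with Lrp5 or Lrp6, which stabilizes β-catenin and switches on target genes. In the intestine this pathway maintains the crypt stem cells. R-spondins prolong the signal by removing the ubiquitin ligases Znrf3 and Rnf43, which degrade Frizzled, from the cell surface. Sfrps carry a Frizzled-like domain and bind Wnts outside the cell, while Ror1, Ror2 and Ryk are receptors for Wnt signals that do not need β-catenin. The enzyme Porcn attaches the lipid to 1 serine of each Wnt, and the extracellular enzyme Notum takes it off again.

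That serine lies in a short stretch of cysteine, histidine, glycine, a variable residue, serine, glycine, serine or threonine, and cysteine. The mouse ligands Wnt3a and Wnt8a were not among the members and were not searched. In each of the 17 ligands among the members the stretch was found once. The coding sequences of this stretch, 24 bases each, are printed for the 8 ligands whose transcripts differed between tumor and colon, since the site is common to all of them whichever way they moved. They are on the coding strand 5′ to 3′ from GENCODE transcripts on GRCm38, and the capitals mark the codon of the lipid-bearing serine.
Wnt6: tgccatgggcttTCGggttcctgc
Wnt10a: tgccacggcaccTCAggcagctgc
Wnt5a: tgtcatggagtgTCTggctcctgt
Wnt3: tgccacgggttgTCCggcagctgc
Wnt16: tgccacggagttTCCggctcctgt
Wnt7b: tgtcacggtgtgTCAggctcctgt
Wnt7a: tgccatggtgtgTCAggctcctgt
Wnt2b: tgtcacggtgtgAGTggctcctgt
The variable residue before the serine is valine in 12 of the 17 ligands, leucine in Wnt3 and Wnt6, threonine in Wnt10a and Wnt10b and methionine in Wnt1. The 2 ligands with the most transcripts per length in the tumors, Wnt6 and Wnt10a, were thus among the 5 without valine there. The 17 proteins are 349 to 417 residues long with 23 to 26 cysteines.

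Levels are given as CPM, counts scaled to a common library size after TMM correction for depth and composition. Levels are set between genes, and summed over the members of a role, only as FPKM. FPKM corrects for exon length and library total but carries no TMM correction, so FPKM sums set between the tissues lack it too. A gene was called when edgeR's quasi-likelihood test gave a Benjamini-Hochberg adjusted p under 0.05 over all tested genes, and fold changes are tumor over colon on the log2 scale ± SE. Library totals were 16995481 to 20789620 counts. Of the 35 tested members, 11 were higher and 10 were lower in tumor. Over all tested genes 16.1% were higher and 16.1% were lower, and the median change was 0.01 on the log2 scale, beside -0.41 over the tested members. The calls were mostly upward among the ligands, downward among the Sfrps and mixed among the Frizzled receptors. Of 14 tested ligands 7 were higher and 1 was lower, of 10 Frizzled receptors 2 were higher and 3 were lower, and the 4 tested Sfrps were lower. The 2 tested R-spondins were called 1 higher and 1 lower. Without tumor replicate 20 only 1 Sfrp was called lower. In 12 of the 35 tested members (34.3%) all tumor libraries were above all colon libraries, and in another 12 (34.3%) they were all below, beside 25.3% and 24.2% of all tested genes. The labels do not say that the replicates of a group came from separate animals, so the p-values cover only the spread among these libraries, which may be technical. Libraries of 1 group differed by far more than counting noise, with a chi-square of 25.1 to 72.7 per gene between any pair.

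**Figure D1:**
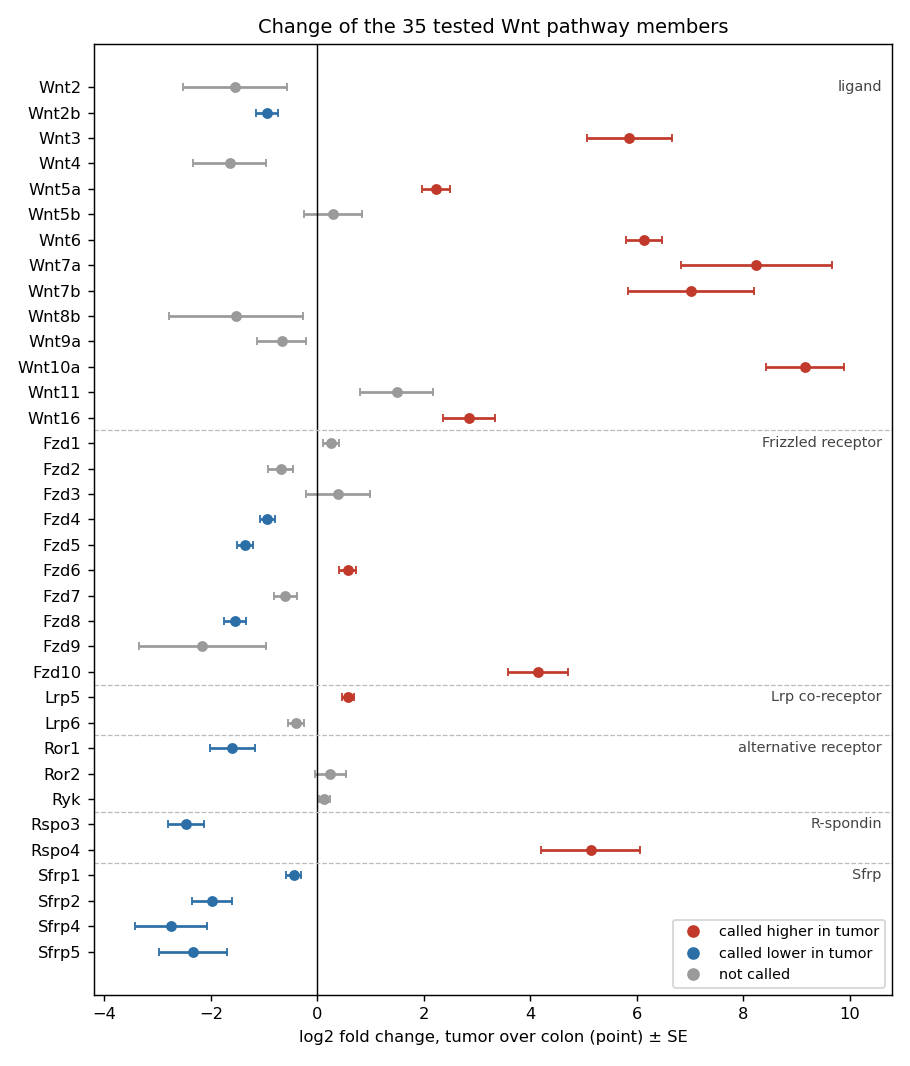
Log2 fold change of tumor over colon (x axis, point ± SE from edgeR) for the 35 tested members (y axis), grouped by role and colored by call. Changes ran from -2.75 for Sfrp4 to 9.15 for Wnt10a, and the called ligands lie to the right of zero except Wnt2b while the 4 Sfrps lie to its left.

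The ligands with the highest mean FPKM in the tumors were Wnt6 and Wnt10a, neighboring genes, of which Wnt10a is best known from teeth and hair follicles and also had the highest fitted change. Wnt6 was at 95.2, 57.9 and 55.4 CPM in tumor replicates 2, 4 and 20, and at 0.654, 1.17 and 1.15 CPM in colon replicates 2, 4 and 20. Each tumor library was 48.1 to 145.6 times as high as the colon library of the same number, and tumor replicate 2 was the highest. The log2 change was 6.13 ± 0.34 (edgeR adjusted p = 0.000145), a 70.0-fold difference. Wnt10a was at 70.3, 29.9 and 40.2 CPM in the tumors, and in colon it had no count in replicates 2 and 4 and 0.22 CPM in replicate 20. It was thus nearly silent in colon and again highest in tumor replicate 2. Its log2 change was 9.15 ± 0.73 (edgeR adjusted p = 0.000373), but colon held only 4 counts in all. The ratio of depth-scaled counts was 617 with an exact 95% interval of 241 to 2265, which covers counting error only, and without colon replicate 20 the fitted log2 change was 12.8.

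Wnt6 and Wnt10a lie on the plus strand of chromosome 1 (GRCm39, positions 74811051 to 74824481 and 74830675 to 74843338), 6193 bases apart. Of the other genes that overlap the 100000 bases on either side, Ttll4 (a tubulin-modifying enzyme) was also higher, at 97.4 against 57.6 CPM with a log2 change of 0.76 (edgeR adjusted p = 0.0131). Cyp27a1, a sterol hydroxylase, was at 76.9 against 34.9 CPM and missed the threshold (edgeR adjusted p = 0.0539). On the other side Cdk5r2 fell by 2.85 on the log2 scale from 1.12 to 0.15 CPM (edgeR adjusted p = 0.0226). The difference at the pair was therefore larger than at any of its tested protein-coding neighbors. The antisense noncoding gene Gm29539 overlaps Wnt6 and was counted 180 times in tumor and 4 times in colon. Whether counting used strand is not given in the sources used here, so its reads and those of Wnt6 may be mixed, although 4213 tumor counts were assigned to Wnt6.

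**Figure D2:**
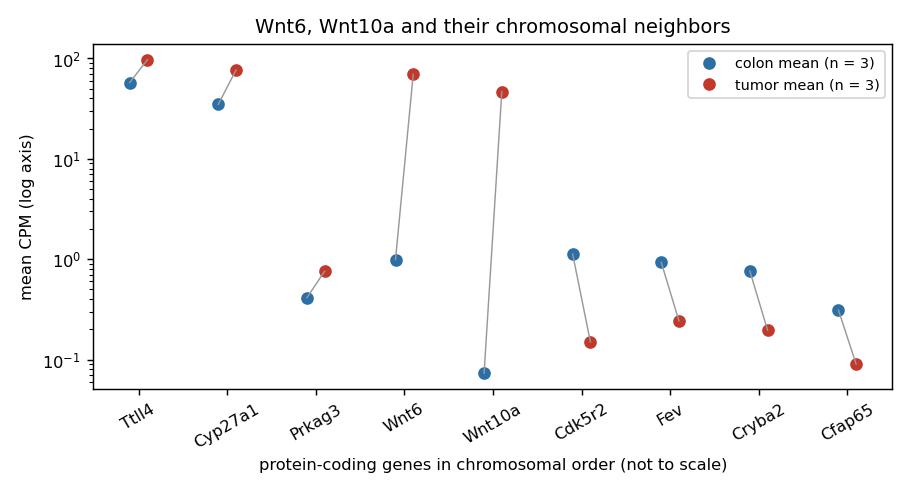
Mean CPM (log axis) of tumor and colon (n = 3 libraries each) for the protein-coding genes around Wnt6 and Wnt10a, in chromosomal order and not to scale. Wnt6 was at 69.5 against 0.991 CPM and Wnt10a at 46.8 against 0.0732 CPM, while the tumor and colon means of the genes on either side lie closer together.

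Wnt5a, the main ligand of Ror2 and a product of the mesenchyme under the gut epithelium, was the third abundant ligand of the tumors. It was at 100.8, 52.2 and 58.6 CPM in tumor replicates 2, 4 and 20 and at 16.5, 14.2 and 14.5 CPM in colon. The colon libraries lay close together and all tumors were well above them, with a log2 change of 2.23 ± 0.26 (edgeR adjusted p = 0.00137), a 4.68-fold difference. Wnt5a overlaps the antisense gene Gm2670, with 93 counts in tumor and 25 in colon.

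The other 4 raised ligands were low in absolute terms. Wnt3, the ligand that Paneth cells supply to the stem cells of the mouse small intestine, was at 2.83, 3.99 and 4.15 CPM in the tumors and at 0.164, 0 and 0 CPM in colon. It was one of 2 raised ligands in which tumor replicate 2 was the lowest tumor. The log2 change was 5.86 ± 0.80 (edgeR adjusted p = 0.00244). Colon held 3 counts, so the ratio of depth-scaled counts was 64.2 with a 95% interval of 21.7 to 314, and without colon replicate 2, which held them, the fitted log2 change was 9.12. Wnt16, known for its part in bone mass, was at 2.10, 5.04 and 2.44 CPM in tumor against 0.436, 0.553 and 0.330 CPM in colon. Tumor replicate 4 was the highest and no libraries overlapped, with a log2 change of 2.85 ± 0.48 (edgeR adjusted p = 0.00541). Wnt7a and Wnt7b, close relatives that signal to blood vessels in the brain, shared a pattern. Wnt7b was at 6.94, 1.47 and 1.5 CPM in tumor and at 0.0545, 0 and 0 CPM in colon (1 count), with a ratio of 176 and a 95% interval of 31.2 to 6988 (edgeR adjusted p = 0.00525). Wnt7a was at 3.86, 0.825 and 1.33 CPM in tumor and had no count in colon, so it was at least 35.3-fold higher when colon is set to a floor of 3 counts for the whole group (edgeR adjusted p = 0.0115). Both were several times higher in tumor replicate 2 than in the other tumors. Without that library the fitted log2 change was 5.87 for Wnt7b and 7.33 for Wnt7a and both stayed called. Without colon replicate 2, which held its only colon count, that of Wnt7b was 8.97.

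Wnt2b, which supports stem cells from the mesenchyme of the gut, was the ligand that fell. It was at 10.02, 8.53 and 7.42 CPM in tumor against 13.3, 18.1 and 18.5 CPM in colon. The highest tumor and the lowest colon library, both numbered 2, were the nearest of the libraries. The change on the log2 scale was -0.94 ± 0.21 (edgeR adjusted p = 0.0135), and without colon replicate 4 the adjusted p was 0.0577.

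**Figure D3:**
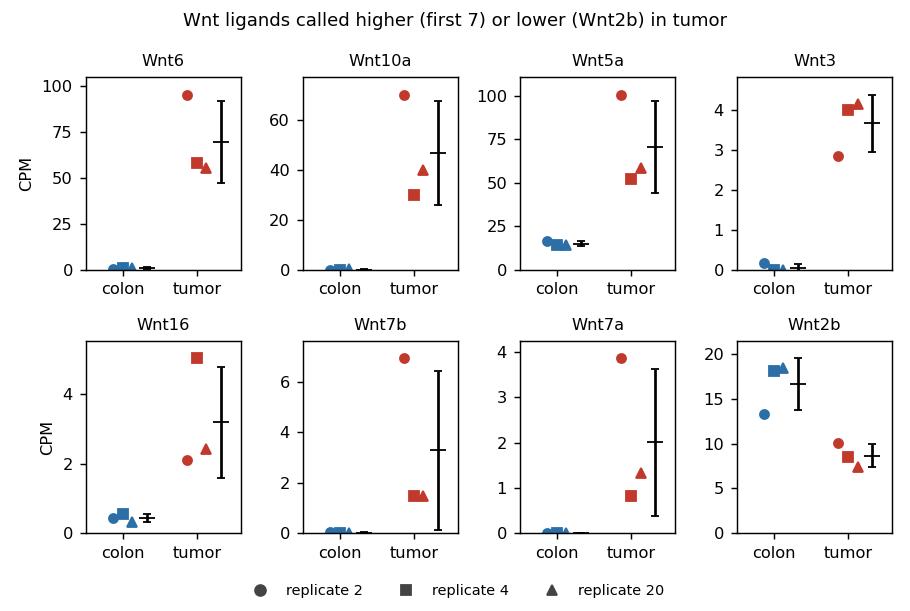
CPM (y axis, a separate scale per gene) of the 8 called ligands in the colon and tumor libraries; symbols give the replicate number, and the bar beside each group is its mean ± SD (n = 3). Tumor replicate 2 (circle) was the highest tumor for Wnt6, Wnt10a, Wnt5a, Wnt7b and Wnt7a, and no gene shown has overlapping groups.

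The remaining ligands were not called. Wnt4, a ligand of kidney and female reproductive tract development, was at 0.782, 3.16 and 1.11 CPM in tumor and 7.41, 6.69 and 1.81 CPM in colon, with overlap through tumor replicate 4 and colon replicate 20. Its log2 change was -1.64 ± 0.68 (edgeR adjusted p = 0.108), and without tumor replicate 4 it was called lower with an adjusted p of 0.0346. Wnt5b, a relative of Wnt5a, was at 3.85 ± 2.24 (SD, n = 3) against 3.14 ± 1.54 CPM (edgeR adjusted p = 0.713). It had 238 counts in tumor and 164 in colon. The coding gene Fbxl14 overlaps it on the other strand, with 3356 and 2378 counts, so reads of the pair may be mixed. Wnt2, Wnt8b, Wnt9a and Wnt11 had group means between 0.377 and 2.66 CPM with edgeR adjusted p from 0.142 to 0.389. In Wnt2 the single colon library of replicate 2 was at 2.78 CPM against 0.123 and 0.604 CPM in the other colon libraries. Wnt1, Wnt9b and Wnt10b were too low to be tested. Wnt1 was counted 0 times in tumor and 2 times in colon, and Wnt10b 42 and 26 times. Wnt9b, which lies 24328 bases from Wnt3 on chromosome 11, was counted 12 times in tumor and 0 times in colon, at least 3.50-fold higher by the same floor.

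Per length, the make-up of the ligand pool was different in the tissues. The 17 ligands summed to 99.1, 57.3 and 57.1 FPKM in tumor replicates 2, 4 and 20 and to 10.1, 10.4 and 9.55 FPKM in colon, so the tumor mean was 7.11 times the colon mean. Wnt6 and Wnt10a together made up 76.5%, 70.5% and 74.4% of the tumor sums and 2.90%, 4.89% and 6.05% of the colon sums. Wnt2b made up 30.8%, 39.6% and 43.2% of the ligand sum in colon and 2.54%, 3.71% and 3.16% in tumor. The share of Wnt5a was 12.2% to 13.7% in tumor and 16.7% to 20.5% in colon, so its share of the pool was smaller in tumor although its level was higher. In order of mean FPKM the tumors held Wnt6 (33.1), Wnt10a (19.8) and Wnt5a (9.41), whose neighboring ranges overlapped, followed by Wnt2b (2.15), whose range did not reach that of Wnt5a. In colon the order was Wnt2b (3.78), Wnt5a (1.85), Wnt4 (1.22) and Wnt5b (1.13), with overlapping ranges only between Wnt4 and Wnt5b.

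**Figure D4:**
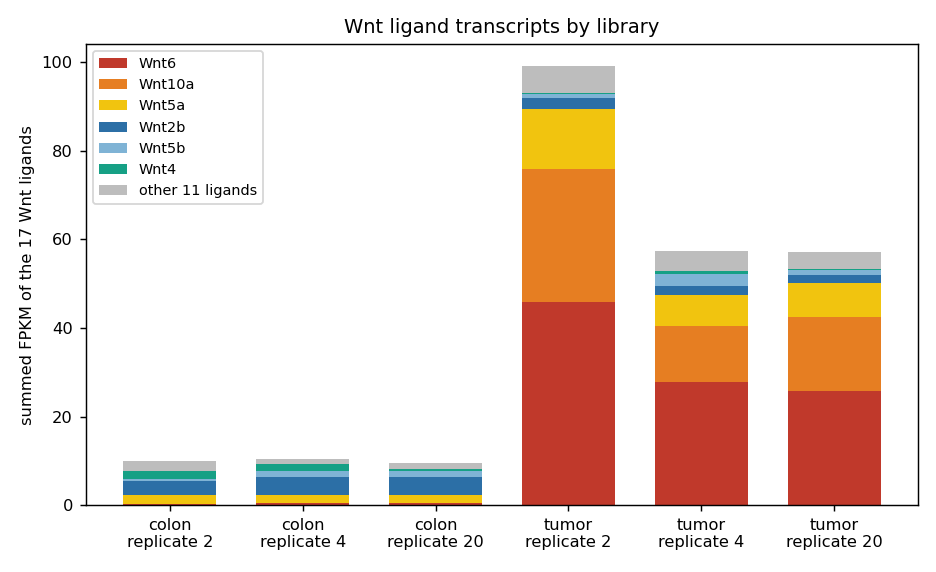
Summed FPKM of the 17 Wnt ligands (y axis) in each library, stacked by ligand. The tumor bars reach 57.1 to 99.1 FPKM and consist mostly of Wnt6 and Wnt10a, and the colon bars reach 9.55 to 10.4 FPKM with Wnt2b as the largest part.

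Among the Frizzled receptors the gene most abundant per length in colon fell. Fzd5, which Paneth cells of the mouse need to mature, was at 37.3, 50.6 and 54.1 CPM in tumor replicates 2, 4 and 20 against 126.4, 115.8 and 120.9 CPM in colon. The colon libraries were all well above the highest tumor, with a log2 change of -1.35 ± 0.15 (edgeR adjusted p = 0.00117). Fzd4, the receptor of the vascular ligand norrin, was at 13.2, 16 and 13.6 CPM in tumor against 29.5, 26.2 and 26.6 CPM in colon, with a log2 change of -0.94 ± 0.14 (edgeR adjusted p = 0.00355). Fzd8, the receptor closest in sequence to Fzd5, was at 6.74, 9.36 and 6.31 CPM in tumor against 20.99, 24.9 and 19.4 CPM in colon, with a log2 change of -1.54 ± 0.21 (edgeR adjusted p = 0.00244). All 3 kept their call in every alternative setting and with any single library left out. The antisense gene Gm38058 overlaps Fzd5 and was counted 495 times in tumor and 1116 times in colon.

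Fzd10, of the same receptor subfamily as Fzd4 and Fzd9, was the Frizzled with the largest rise. It was at 9.58, 13.3 and 8.14 CPM in the tumors and at 0.327, 0.246 and 1.15 CPM in colon. All tumors were above 8 CPM and only colon replicate 20 was above 1 CPM. The log2 change was 4.14 ± 0.56 (edgeR adjusted p = 0.00246), and it was 5.14 without colon replicate 20. Fzd6, which acts in planar cell polarity, was at 25.1, 20.5 and 27.8 CPM in tumor against 15.5, 16.95 and 17.1 CPM in colon, a log2 change of 0.57 ± 0.16 (edgeR adjusted p = 0.0313). This smaller difference was lost when any library other than tumor replicate 4 was left out, with adjusted p from 0.0687 to 0.105, and with the replicate number as a block (adjusted p = 0.0532).

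Fzd1, Fzd2, Fzd3, Fzd7 and Fzd9 were not called. Fzd1, a broadly expressed receptor, was at 69.8 ± 11.6 CPM in tumor and 58.4 ± 4.16 CPM in colon (edgeR adjusted p = 0.217), and without tumor replicate 2 it was called higher (adjusted p = 0.0425). Fzd7, the receptor used by the Lgr5-positive crypt stem cells of the mouse, was at 28.4, 19.3 and 16.2 CPM in tumor and 32.1, 29.8 and 34.99 CPM in colon. Its groups did not overlap, yet it missed the threshold (edgeR adjusted p = 0.0735), and without tumor replicate 2 it was called lower (adjusted p = 0.0116). Fzd2, a relative of Fzd7, was at 11.9 ± 2.26 against 19.2 ± 4.86 CPM (edgeR adjusted p = 0.0623) and was called lower without tumor replicate 4 (adjusted p = 0.0463) or colon replicate 2 (adjusted p = 0.0364). Fzd3, a polarity receptor like Fzd6, was at 5.23 ± 1.54 against 3.99 ± 3.17 CPM (edgeR adjusted p = 0.654). Fzd9 was at 0.273 and 1.6 CPM in colon replicates 2 and 4 and at 11.4 CPM in colon replicate 20, against 0.489 to 1.83 CPM in tumor. That library was also the highest for Fzd3 and for the summed markers of enteric neurons (125.0 CPM against 73.2 and 67.8 in the other colon libraries), and the part of this in the Fzd9 value was not tested.

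Per length the 10 Frizzled receptors summed to 45.7 ± 3.93 FPKM in tumor and 54.9 ± 2.72 FPKM in colon (SD, n = 3), so the sum changed far less than that of the ligands. The first place was taken by Fzd1 in tumor (17.3 FPKM, with the range of Fzd5 below it) and by Fzd5 in colon (16.8 FPKM, with the range of Fzd1 below it). Fzd1 made up 33.8% to 40.9% of the Frizzled sum in tumor and 21.2% to 26.9% in colon, and Fzd5 made up 13.6% to 17.5% and 28.4% to 32.8%.

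The co-receptors Lrp5 and Lrp6 both transmit the β-catenin signal. Lrp5 was at 182.1, 149.8 and 161.6 CPM in tumor against 116.6, 106.6 and 108.5 CPM in colon. The groups were well apart, and the log2 change was 0.57 ± 0.11 (edgeR adjusted p = 0.00774). Lrp6 was at 159.9, 136.9 and 123.4 CPM in tumor and 211.2, 190.1 and 156.7 CPM in colon. Its groups overlapped, since tumor replicate 2 was above colon replicate 20, but within each number the tumor was lower, at 0.757, 0.720 and 0.788 of the colon value for numbers 2, 4 and 20. Its log2 change was -0.41 ± 0.15 (edgeR adjusted p = 0.074), and with the replicate number as a block it was called lower (adjusted p = 0.0268).

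Of the receptors outside the β-catenin branch, Ror1, a receptor kinase-like protein of the embryo, fell. It was at 2.64, 3.21 and 6.70 CPM in tumor against 17.9, 9.64 and 10.3 CPM in colon, and its groups did not overlap. The log2 change was -1.59 ± 0.42 (edgeR adjusted p = 0.0263), and the adjusted p was 0.0679 without tumor replicate 2, 0.0647 without tumor replicate 4 and 0.0699 without colon replicate 2. Ror2, the partner of Wnt5a, was at 31.7, 19.99 and 20.8 CPM in tumor and 13.1, 22.2 and 26.0 CPM in colon (edgeR adjusted p = 0.565). Tumor replicate 2, which had the most Wnt5a, also had the most Ror2, while the other tumors lay within the colon range. Ryk, a receptor with an inactive kinase domain, was at 69.4 ± 6.05 against 63.4 ± 0.70 CPM (edgeR adjusted p = 0.364), with groups that did not overlap but differed by less than 1 CPM at their nearest.

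The R-spondins differed in both directions. Rspo3, the main R-spondin of the mouse gut stroma, was at 1.08, 2.25 and 1.72 CPM in tumor replicates 2, 4 and 20 against 9.65, 11.1 and 7.14 CPM in colon. Every colon library was well above the highest tumor, and the log2 change was -2.46 ± 0.34 (edgeR adjusted p = 0.00265). Rspo4, known for nail growth in humans, was at 1.37, 0.596 and 0.720 CPM in tumor and had 1 count in colon, against 54 in tumor. The ratio of its depth-scaled counts was 47.3 with a 95% interval of 8.14 to 1902 (edgeR adjusted p = 0.00686), and without colon replicate 4, which held the colon count, the fitted log2 change was 7.13 in place of 5.13. Rspo1 and Rspo2 were too low to be tested, with 2 and 4 counts in tumor and 31 and 14 in colon. In alternatives in which Rspo1 was tested, it was called lower with no count filter (adjusted p = 0.0305), by DESeq2 (0.0187), without tumor replicate 4 (0.021) and without colon replicate 4 (0.0452), and not without tumor replicate 2 (0.0585) or 20 (0.0668). Per length the 4 R-spondins summed to 0.991 ± 0.0784 FPKM in tumor and 3.23 ± 0.515 FPKM in colon. Rspo3 made up 81.6% to 94.0% of the colon sum and 37.6% to 70.9% of the tumor sum. The antisense gene Gm48159 overlaps Rspo3 and was counted 23 and 123 times in tumor and colon.

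The 4 Sfrps were lower in tumor, and their groups did not overlap. Sfrp1, the most abundant, was at 60.9, 48.8 and 44.0 CPM in tumor against 70.3, 66.1 and 72.5 CPM in colon, a log2 change of -0.44 ± 0.14 (edgeR adjusted p = 0.0461). Sfrp2, a product of fibroblasts, was nearly equal in the tumors, at 3.23, 3.53 and 3.32 CPM, and was at 14.9, 18.1 and 6.59 CPM in colon, a log2 change of -1.97 ± 0.37 (edgeR adjusted p = 0.00818). The antisense gene Gm26771 overlaps Sfrp2 and was counted 82 times in tumor and 89 times in colon, beside 203 and 689 counts of Sfrp2. Sfrp4, known from bone, was at 2.20, 0.550 and 0.831 CPM in tumor against 14.5, 4.97 and 4.67 CPM in colon, a log2 change of -2.75 ± 0.67 (edgeR adjusted p = 0.0199). Colon replicate 2 stood well above the other colon libraries for Sfrp4. Sfrp5, known from adipose tissue and the foregut, was at 0.293, 0.780 and 0.277 CPM in tumor against 3.65, 2.33 and 0.989 CPM in colon, a log2 change of -2.34 ± 0.64 (edgeR adjusted p = 0.0297). Per length the 4 summed to 14.4 ± 2.41 FPKM in tumor and 24.2 ± 3.92 FPKM in colon, and Sfrp1 made up 83.6% to 86.5% of the tumor sum and 56.6% to 77.9% of the colon sum. The calls were not equally firm. Sfrp2 kept its call with each library left out. Sfrp1 lost its call without tumor replicates 4 or 20 or any colon library (adjusted p from 0.10 to 0.139) and with the replicate block (adjusted p = 0.0557). Sfrp4 lost its call without tumor replicate 20 (adjusted p = 0.0724), and its log2 change was -3.54 without tumor replicate 2 and -2.01 without colon replicate 2. Sfrp5 lost its call without tumor replicates 2 or 20 or colon replicates 2 or 4 (adjusted p from 0.0794 to 0.0959), and its log2 change was -2.99 without tumor replicate 4. The number of Sfrps called lower was thus 1 without tumor replicate 20, and 2 without colon replicate 2 or colon replicate 4.

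**Figure D5:**
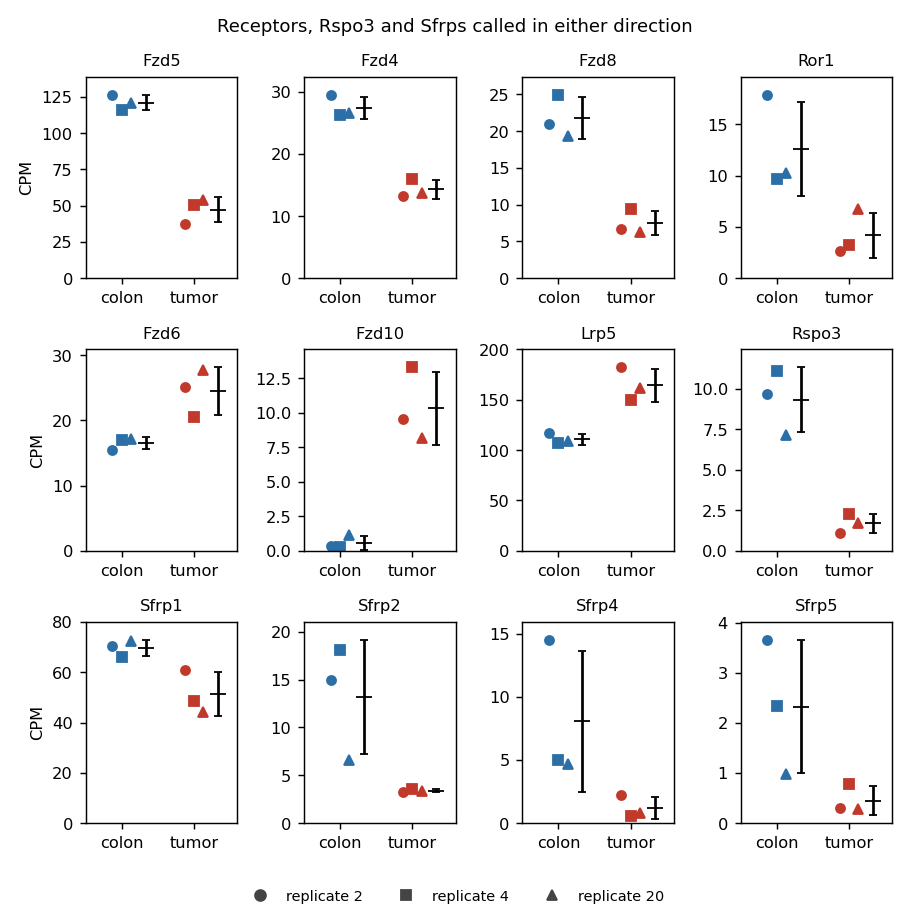
CPM (y axis, a separate scale per gene) in the colon and tumor libraries for the called receptors, Rspo3 and the 4 Sfrps; symbols give the replicate number, and the bar beside each group is its mean ± SD (n = 3). Fzd6, Fzd10 and Lrp5 were higher in tumor and the others lower, and the colon values of Sfrp2, Sfrp4 and Sfrp5 spread more widely than their tumor values.

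Further genes of the pathway were counted by lists, which were chosen with earlier results of these data known. Of 7 tested genes of Wnt secretion edgeR called 0. At an unadjusted p under 0.05 it had 2 higher and 1 lower, DESeq2 and limma-voom called 0, and limma on log2(FPKM + 1) or log2(FPKM + 0.1) called 1 higher. The carrier Wls was at 151.7 ± 8.82 CPM in tumor and 126.3 ± 3.68 CPM in colon (edgeR adjusted p = 0.0647), and Vps29, a part of the retromer that recycles Wls, was at 53.5 ± 2.62 and 44.6 ± 3.76 CPM (edgeR adjusted p = 0.104). The acyltransferase Porcn was at 5.34 ± 1.18 and 7.13 ± 0.793 CPM (edgeR adjusted p = 0.226). Of the 5 R-spondin receptors and ubiquitin ligases 4 were higher. Znrf3 was at 91.2 ± 4.59 against 19.8 ± 1.59 CPM (log2 change 2.20 ± 0.11, edgeR adjusted p = 0.00011) and Rnf43 at 301.7 ± 70.7 against 38.1 ± 3.77 CPM (log2 change 2.99 ± 0.19, edgeR adjusted p = 0.000211). Lgr5 and Lgr6 were also higher, and Lgr4 was at 121.4 ± 16.9 against 176.0 ± 48.6 CPM, lower at an unadjusted p under 0.05 only (edgeR adjusted p = 0.0906).

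Of 9 tested secreted Wnt inhibitors that were not members 6 were higher and 2 were lower, with a median log2 change of 1.95. The remaining gene was Frzb, also named Sfrp3, at 8.40 ± 3.19 CPM in tumor against 6.09 ± 3.10 CPM in colon. Its log2 change was 0.46 ± 0.44 and it was not called (edgeR adjusted p = 0.455). Notum, the enzyme that removes the lipid from the serine residue whose codon is shown above, was at 343.7 ± 21.1 CPM in tumor against 0.642 ± 0.110 CPM in colon (log2 change 9.05 ± 0.16, edgeR adjusted p = 1.81e-06). Wif1, which binds Wnts, was at 464.2 ± 45.4 against 1.1 ± 0.409 CPM (log2 change 8.72 ± 0.27, edgeR adjusted p = 1.67e-05). Apcdd1, Dkk2, Dkk3 and Igfbp4 were the others that rose, and Sostdc1 and Trabd2b fell. The 4 Sfrps among the members and most of these other inhibitors thus moved in opposite directions, while Frzb was called in neither. The 11 Wnt target genes were all higher (median log2 change 3.12), with the lowest adjusted p in Mmp7, which is also counted among the Paneth cell markers, and in Nkd1, which was at 562.4 ± 21.9 against 22.8 ± 2.92 CPM (log2 change 4.63 ± 0.14). Of 12 cytoplasmic transducers 4 were higher and 1 was lower (median 0.26), while DESeq2 called 3 and 1, limma on log2(FPKM + 1) 6 and 0, and limma on log2(FPKM + 0.1) 7 and 0. They were led by Csnk1e (log2 change 1.77 ± 0.19, edgeR adjusted p = 0.000995) and Ctnnb1, which encodes β-catenin (0.88 ± 0.12, edgeR adjusted p = 0.00262). Of 11 planar polarity genes 5 were higher (median 0.33), and 1 other was lower at an unadjusted p under 0.05 only. The called genes were led by Vangl2 (3.33 ± 0.29, edgeR adjusted p = 0.000515) and Ptk7 (1.97 ± 0.18, edgeR adjusted p = 0.000634). Of 3 tested Dickkopf and norrin receptor genes Tspan12, a partner of Fzd4, was higher (1.70 ± 0.18, edgeR adjusted p = 0.00101) and Kremen1, at 51.7 ± 7.43 against 45.7 ± 5.90 CPM, was not called (edgeR adjusted p = 0.395).

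The tissues also differed in the markers of other cell types, and in bulk samples fewer cells of a type and less RNA per cell cannot be told apart. Of 14 epithelial markers edgeR called 2 higher and 0 lower. At an unadjusted p under 0.05 it had 2 others lower, and limma-voom called 1 marker lower. The summed level of the 14 was 11020 to 12240 CPM in tumor and 11340 to 12660 CPM in colon. All 9 smooth muscle markers were lower, summing to 565.5 to 1126 CPM in tumor and 9319 to 9599 CPM in colon. Likewise 7 of 8 tested markers of enteric neurons, 5 of 5 of glia (183.9 to 225.8 against 279.5 to 459.5 CPM) and 4 of 4 of interstitial cells of Cajal (235.8 to 319.1 against 690.7 to 1007 CPM) were lower. The neuron markers other than Ret summed to 7.92 to 10.2 CPM in tumor and 60.1 to 108.5 CPM in colon. Ret, a receptor kinase of the enteric nervous system, was at 29.7 ± 21.1 against 11.6 ± 4.45 CPM (edgeR adjusted p = 0.118), and DESeq2 called 1 marker of this list higher. No defining marker of muscle was at 0 in either tissue. These values moved in the same direction as Wnt2b, Fzd4, Fzd5, Fzd8, Ror1, Rspo3 and the Sfrps, and their part in those results was not tested.

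Fibroblast markers went both ways, with 2 of 9 higher and 3 lower and sums of 1775 to 2621 CPM in tumor and 1566 to 2315 CPM in colon. Of 7 markers of trophocytes, the submucosal fibroblasts known for R-spondin and Wnt2b in the mouse, 1 was higher and 4 were lower, with sums of 552.3 to 708.7 and 599.6 to 730.8 CPM. The largest parts of these sums were Cd81 (273.0 against 203.9 CPM, called higher), Grem1 (154.2 against 149.9 CPM) and C3 (137.0 against 168.4 CPM). The 4 lower markers, Ackr4, Cd34, Pi16 and Gas1, added less. Of 7 markers of telocytes, the subepithelial cells known for Wnt5a, 5 were higher, and Gli1 was at 7.12 ± 0.817 against 12.5 ± 4.42 CPM (edgeR adjusted p = 0.0598). Gli1 was lower at an unadjusted p under 0.05, and DESeq2 called 1 marker of this list lower. The sums of the 7 telocyte markers were 486.7, 239.6 and 414.9 CPM in tumor replicates 2, 4 and 20 and 105.5 to 168.3 CPM in colon. F3 alone made up 268.1, 77.7 and 225.5 CPM of these tumor sums. The tumor with the highest sum was also the one with the most Wnt5a, but it was the highest tumor for 7 of the 11 members called higher. Of 6 Paneth cell markers 5 were higher, with sums of 1407 to 3058 CPM in tumor and 17 to 43.6 CPM in colon, and Defa21 had no count in colon. Among the tumors the Paneth sum and Wnt3 were both lowest in replicate 2, but the sum was highest in replicate 4 and Wnt3 in replicate 20. The part of these cell types in the levels of Wnt5a, Wnt3 and the other members was not tested.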

How the data were processed

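RNA-seq was done on 3 tumor and 3 colon libraries from AOM/DSS mice, made with a stranded mRNA kit. Per the submitters' processing notes, cutadapt, HISAT and the GRCm39 build were used. Their versions, the counting tool and whether it used strand: not given in the sources used here. A deposited table lists unnormalized fragment counts of 33573 genes. It also holds FPKM values, which the authors made by dividing the counts by exon length and library total.

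The counts were scaled by TMM, filtered by filterByExpr and compared by the quasi-likelihood test of edgeR 4.0.16 in R 4.3.3, and p-values of 18520 genes were adjusted by Benjamini-Hochberg (threshold 0.05). The model had no block. An approximate standard error was obtained from each log2 change and its F statistic. Alternatives used DESeq2 1.42.0 and limma 3.58.1 (voom, and log2(FPKM + 1) and log2(FPKM + 0.1)), other scalings and filters, the replicate number as a block, and each library left out. The scripts were tested on simulated data. Intervals of count ratios are exact binomial (95%), scaled by library size, and the floor is 3 counts over a group. Intervals and floors cover counting error only. Coordinates are those of the table, and the 24-base sites came from GENCODE M21 coding sequences.

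Since the series design calls the tissues paired, equal numbers were taken as pairs. The correlation between the tumor and the colon library of a pair, as deviations from their group means, was 0.19 (number 2), 0.12 (number 4) and 0.02 (number 20). Members, gene lists and tests were chosen with earlier results of these data known. Called members with a group mean of at least 1 CPM were described with each library's value, uncalled members of at least 5 CPM with group levels, the rest by name. Of each further list, the counts and the 2 genes with the lowest adjusted p were named. Porcn, Lgr4, Gli1 and a few others were named in addition, after their values were seen.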

Additional observations from a re-analysis of the deposited data

How the results depend on the processing

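Over 17 alternatives (scaling, filter, test, unit, replicate block, composition and each library left out) 9 to 11 members were called higher and 7 to 14 lower, and no called member changed direction. Of the 21 called members 14 kept their call in every alternative in which they were tested. Fzd6, Ror1, Sfrp1, Sfrp4, Sfrp5, Wnt2b and Wnt7b lost it in 1 or more, Wnt7b only in limma on log2(FPKM + 1) (adjusted p = 0.0705) and Sfrp1 in 10. Scaling to epithelial markers ended the call of Sfrp1 (adjusted p = 0.114). With each library left out in turn, 10 to 11 members were higher and 7 to 11 lower. With the replicate number as a block, 10 were higher and 10 were lower, since Fzd6 and Sfrp1 were lost and Lrp6 was gained; the block changed no other member's call. DESeq2 called 14 lower, the 10 with Fzd2, Fzd7, Wnt4 and Rspo1, which the main filter left out. With at least 1 CPM required in 3 libraries, 9 were higher and 9 lower, since fewer members were tested. Over all genes, the calls were 2981 higher and 2987 lower, against 3860 and 2350 in limma on log2(FPKM + 1) and 3911 and 2408 on log2(FPKM + 0.1), in which the median change of all genes was 0.12; without colon replicate 4, 1905 were higher and 1904 lower. The cause was not tested. Over the alternatives the adjusted p was 0.0183 to 0.105 for Fzd6, 0.00076 to 0.0699 for Ror1, 0.0141 to 0.139 for Sfrp1, 5.42e-05 to 0.0724 for Sfrp4, 0.0042 to 0.0959 for Sfrp5, 0.000708 to 0.0577 for Wnt2b and 2.23e-06 to 0.0705 for Wnt7b. Among members not called it was 0.0425 to 0.455 for Fzd1, 0.0341 to 0.187 for Fzd2, 0.0116 to 0.188 for Fzd7, 0.0268 to 0.23 for Lrp6 and 0.0346 to 0.256 for Wnt4. Depth limits the colon values of Wnt3, Wnt7a, Wnt7b, Wnt10a and Rspo4, which rest on 0 to 4 counts.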
